A study of Mus musculus with 4 samples.

Results

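The genes described here are 9 CXC chemokine genes of mouse liver: Cxcl1, Cxcl2, Cxcl9, Cxcl10, Cxcl11, Cxcl12, Cxcl13, Cxcl14 and Cxcl16. They were chosen by symbol, with earlier results of these data known, as probe sets whose platform annotation names that gene alone. Each symbol had 1 probe set, and the 9 are among 22180 genes with a named probe set. Expression was measured in total liver RNA of C57Bl6 mice aged 16 weeks on 4 Affymetrix arrays, with genotype and diet crossed and 1 array a group. The wild-type group had the genotype MyD88 lox/lox, a floxed gene with no recombinase. The knockout group had the genotype ALB Cre MyD88 lox/lox, in which the albumin promoter drives Cre in hepatocytes, so other liver cells keep the gene. Each genotype received a control diet of 9.4% fat or a high-fat diet of 60% fat. All groups thus carried the floxed allele, and no group had Cre without it. RNA of 4 to 5 mice was pooled for each array, so each group had 1 array, the spread between mice was not measured, and a difference between 2 arrays has no p-value.

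CXC chemokines are small secreted proteins that direct the movement of leukocytes through receptors of the Cxcr family. Those that bind Cxcr2, such as Cxcl1 and Cxcl2, attract neutrophils and are induced through NF-kappaB downstream of Toll-like and interleukin-1 receptors, for which Myd88 is the adaptor. Those that bind Cxcr3, such as Cxcl9, Cxcl10 and Cxcl11, attract activated T cells and NK cells and are induced by interferons. Cxcl12, Cxcl13 and Cxcl14 are made more constantly in tissues, and Cxcl16 is made as a membrane protein that can be shed. In liver these genes are known from hepatocytes, Kupffer cells, sinusoidal endothelium and stellate cells.

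The promoters of 4 members are shown, picked after the values were seen: Cxcl1 had the largest differences, its neighbour Cxcl2 was dim and nearly even, and Cxcl9 and Cxcl10 were both highest on the same array. Each is the RefSeq sequence on GRCm38.p6 from 250 bases before to 50 bases after the gene's start, read 5′ to 3′ on the gene's own strand. Of the 9 members, 7 had a promoter in the RefSeq table, and Cxcl11 and Cxcl16 did not. Capitals mark matches, on either strand, to GGANNTNCC, the core of an NF-kappaB site, and to AAANNGAAA, the core of an interferon-stimulated response element. Matches that overlap run together as 1 stretch of capitals. Cxcl1 lies at chr5:90890995-90891294 on the plus strand, Cxcl2 at chr5:90903649-90903948 on the plus strand, Cxcl9 at chr5:92328030-92328329 on the minus strand and Cxcl10 at chr5:92348840-92349139 on the minus strand.
Cxcl1: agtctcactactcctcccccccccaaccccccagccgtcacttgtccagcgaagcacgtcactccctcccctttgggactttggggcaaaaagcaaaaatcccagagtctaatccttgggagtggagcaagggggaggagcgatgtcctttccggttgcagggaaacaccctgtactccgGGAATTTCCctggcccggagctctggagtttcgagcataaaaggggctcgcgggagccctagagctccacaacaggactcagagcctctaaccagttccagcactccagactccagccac
Cxcl2: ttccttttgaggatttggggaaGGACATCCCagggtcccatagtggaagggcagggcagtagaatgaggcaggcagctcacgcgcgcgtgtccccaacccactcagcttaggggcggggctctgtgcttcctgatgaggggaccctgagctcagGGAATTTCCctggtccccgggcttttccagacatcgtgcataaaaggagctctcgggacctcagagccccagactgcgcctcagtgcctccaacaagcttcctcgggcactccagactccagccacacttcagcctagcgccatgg
Cxcl9: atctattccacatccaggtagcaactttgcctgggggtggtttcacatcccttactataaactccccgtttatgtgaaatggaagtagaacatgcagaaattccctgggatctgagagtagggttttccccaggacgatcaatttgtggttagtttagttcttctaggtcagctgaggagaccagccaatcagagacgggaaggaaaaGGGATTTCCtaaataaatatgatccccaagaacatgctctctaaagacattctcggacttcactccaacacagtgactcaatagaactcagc
Cxcl10: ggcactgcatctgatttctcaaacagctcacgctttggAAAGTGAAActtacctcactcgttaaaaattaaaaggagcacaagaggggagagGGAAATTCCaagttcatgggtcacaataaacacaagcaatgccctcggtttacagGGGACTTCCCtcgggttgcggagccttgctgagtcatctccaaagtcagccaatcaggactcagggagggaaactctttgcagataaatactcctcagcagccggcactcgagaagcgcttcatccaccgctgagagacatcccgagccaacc

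The site GGAATTTCC occurred in both the Cxcl1 and the Cxcl2 promoter, starting 70 and 96 bases before the start. Cxcl2 held another match, GGACATCCC, 228 bases before its start. In Cxcl9 the match GGGATTTCC started 42 bases before the start. Cxcl10 held GGAAATTCC at 158 bases, a pair of overlapping matches from 103 bases, and AAAGTGAAA at 212 bases before the start. The NF-kappaB core was found in 4 of the 7 member promoters, which are the 4 shown here. It was also found in 15.0% of 32851 promoters of that length, so a match is common. The response element core was found in 2 of 7, Cxcl10 and Cxcl14, and in 10.6% of all promoters. The interferon-gamma activated site core TTCNNNGAA was found in 1 of 7, Cxcl14, and in 8.30% of all. Cxcl12 and Cxcl13 held no match to any of these cores. These are matches of letters, and binding was not measured.

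Between arrays the Pearson r over probe sets was 0.985 to 0.990. The log2 value of a gene was kept for counts and fits if its mean reached the 40th percentile of genes, 3.47, which left 13308 genes and 8 of the 9 members. Cxcl2, at a mean of 3.38, was just outside this limit, and Cxcl10, at 3.85, was the nearest inside it. Hepatocyte markers such as Alb and Ttr were bright, with a list mean between 12.23 and 12.27 on the 4 arrays. Myd88 itself was lower in knockout by -0.19 on control and -0.21 on high-fat diet. The position of its probes was not analysed here, so this does not check the deletion. Transcripts of exocrine pancreas differed between the arrays: the mean log2 value over the 11 measured markers was 5.10 for wild type and 7.41 for knockout on control diet, and 7.10 and 8.40 with high fat. Skeletal muscle markers averaged 5.13 on the wild-type high-fat array, with the other 3 from 3.64 to 3.94. In bulk tissue, fewer cells of a type and less RNA per cell cannot be told apart.

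Members differed between arrays to very unequal extents. From the lowest to the highest array, Cxcl1 spanned 4.86-fold, Cxcl11 2.43-fold and Cxcl13 2.29-fold, while Cxcl12 spanned 1.06-fold and Cxcl2 1.13-fold. The other members, Cxcl9, Cxcl10, Cxcl14 and Cxcl16, spanned 1.31-fold to 1.75-fold. Since probe sets differ in brightness, levels are compared between arrays within a gene and not between genes.

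**Figure D1:**
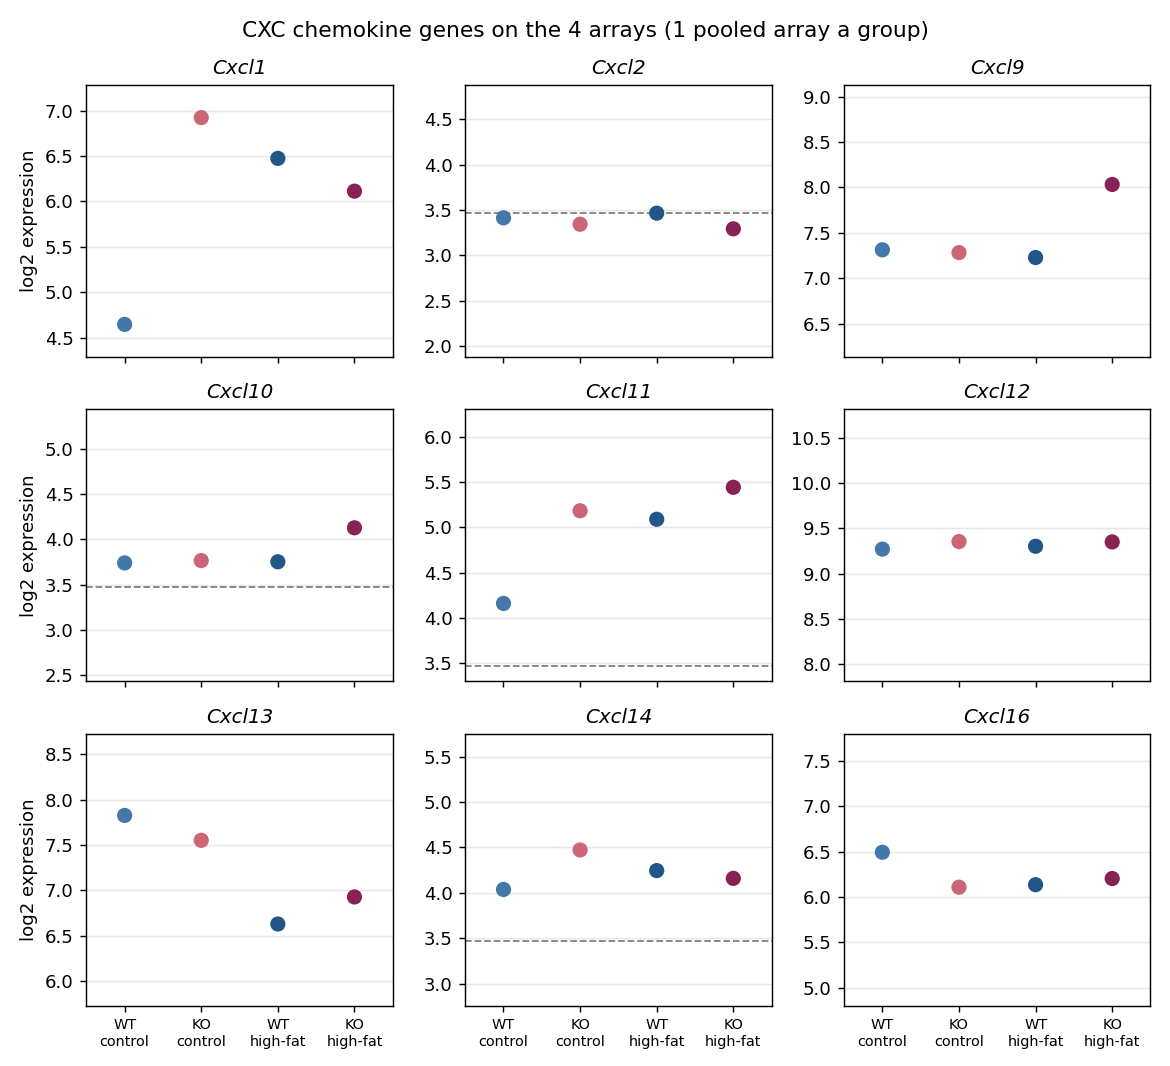
Log2 expression (vertical axes, each 3 log2 units tall) of the 9 CXC chemokine genes on the 4 arrays (horizontal axis), 1 point per pooled array with no error bar because there are no replicates. The dashed line is the limit for dim genes at 3.47. Cxcl1 and Cxcl11 are low on the wild-type control array, Cxcl9 is high on the knockout high-fat array, and Cxcl13 is low on both high-fat arrays.

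Among the neutrophil attractants, Cxcl1 was low on the wild-type control array alone. Its log2 value (probe set 17438987) was 4.64 for wild type and 6.92 for knockout on control diet, and 6.47 and 6.11 with high fat. The other 3 arrays lay within 0.81 of each other and well above it. On control diet the knockout value was higher by 2.28, or 4.86-fold, which ranked 17 of 13308 genes from the top. In wild type the high-fat value was higher by 1.83, or 3.56-fold, ranking 18. Both of these differences subtract the wild-type control array and were not found independently. Between arrays that do not include it the direction was the other way. The diet difference in knockout was -0.81, which ranked 76 of 13308 genes from the bottom. That lay below the central 95% of all genes, from -0.52 to 0.57. The genotype difference on high-fat diet was -0.36, inside the central 95%, from -0.46 to 0.56.

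Cxcl2, which encodes a close relative of Cxcl1 with the same receptor, was dim on every array. Its log2 values (probe set 17438995) were 3.41 for wild type and 3.34 for knockout on control diet, and 3.47 and 3.29 with high fat. Its largest difference was -0.17, knockout against wild type on high-fat diet. At values near those of the dimmest genes a difference may be compressed, so the array gives little information on Cxcl2. The sequences of Cxcl1, Cxcl2 and Cxcl3 are related, and whether their probe sets share probes was not analysed here.

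Cxcl1 and Cxcl2 stand at the end of a run of 7 CXC genes on chromosome 5, after Cxcl5, Ppbp, Pf4, Cxcl3 and Cxcl15 in the RefSeq gene table. Cxcl5 encodes another Cxcr2 ligand, and Ppbp and Pf4 encode chemokines of platelets. Of these 5 genes only Ppbp passed the limit for dim genes. Ppbp was 4.25 for wild type and 4.06 for knockout on control diet, and 3.93 and 4.28 with high fat. Cxcl5 was highest on the knockout high-fat array, at 3.63, with the other 3 from 3.15 to 3.22. None of the 5 was at least 2-fold different in any of the 4 comparisons, and Cxcl1 alone in the run was. The lung-type chemokine Cxcl17, which lies elsewhere, ranged from 3.88 to 4.09.

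**Figure D2:**
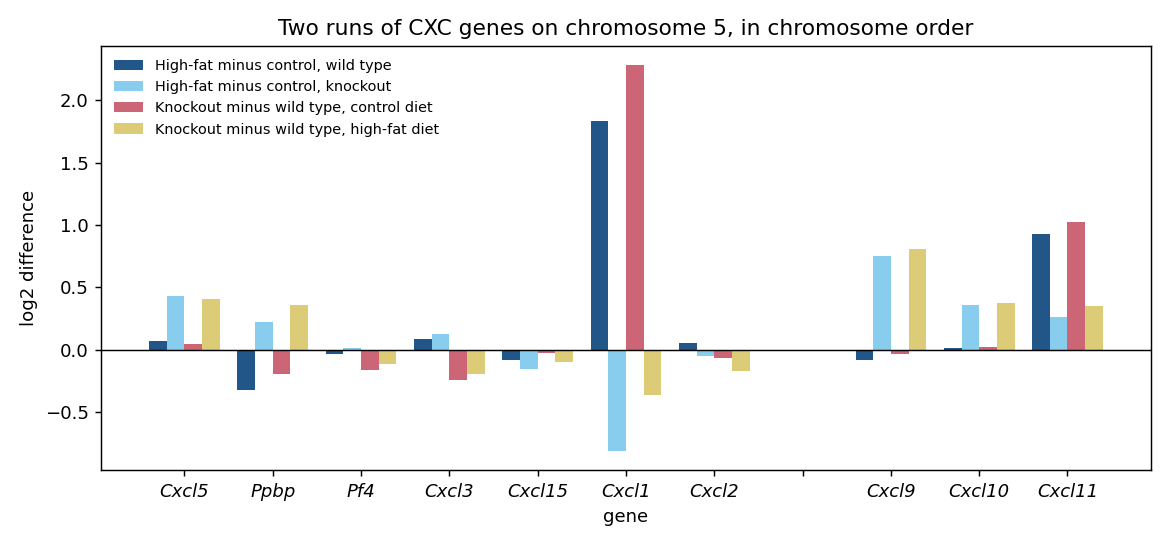
Log2 differences between single arrays (vertical axis) for the genes of the Cxcl1 and Cxcl2 run and, to the right of the gap, for Cxcl9, Cxcl10 and Cxcl11, in chromosome order (horizontal axis). Each gene has 4 bars, 1 per comparison, without error bars since each is a subtraction of 2 arrays. Within the left run Cxcl1 reaches 2.28 and 1.83, and no bar of another gene there is past 0.43 in size.

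Among the Cxcr3 ligands, Cxcl9 and Cxcl10 were highest in knockout mice on high-fat diet, with the other 3 arrays close together. Cxcl9 (probe set 17449710) was 7.31 for wild type and 7.28 for knockout on control diet, and 7.23 and 8.03 with high fat. Its knockout high-fat value was 1.75-fold above wild type on that diet, a difference of 0.81 that ranked 67 of 13308 genes, and 1.68-fold above knockout on control diet. The 3 lower arrays lay between 7.23 and 7.31. These differences both subtract from the same array and fell short of 2-fold.

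Cxcl10 (probe set 17449718) was also highest on that array, by less. It was 3.74 for wild type and 3.77 for knockout on control diet, and 3.75 and 4.13 with high fat. The difference of 0.37 between genotypes on high-fat diet lay within the central 95% of all genes, which ran from -0.46 to 0.56. The value for Cxcl9 lay above that band.

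Cxcl11 was also highest on the knockout high-fat array, but it was low on the wild-type control array, where Cxcl9 and Cxcl10 were near their other values. The RefSeq table lists it as a transcribed pseudogene in the C57BL/6J genome, so the values describe a transcript and not a chemokine. Its log2 value (probe set 17449725) was 4.16 for wild type and 5.18 for knockout on control diet, and 5.09 and 5.44 with high fat. It was lowest on the wild-type control array, by 0.93 or more, and the order of its 4 arrays was that of Cxcl10. The knockout value was higher by 1.02, or 2.03-fold, on control diet, just past 2-fold, and by 0.35 on high-fat diet. Its diet difference was 0.93 for wild type and 0.26 for knockout. The table also places Art3 over Cxcl10 and Cxcl11; the probe set of Art3 was dim, between 3.25 and 3.56.

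Cxcl12, the ligand of Cxcr4 that retains blood cell precursors and lymphocytes in tissues, was the most even of the 9. Its log2 values (probe set 17462149) were 9.27 for wild type and 9.35 for knockout on control diet, and 9.30 and 9.35 with high fat. All 4 arrays lay within 0.08 log2.

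Cxcl13, the ligand of Cxcr5 that guides B cells into follicles, was lower on high-fat diet in both genotypes. Its log2 value (probe set 17439367) was 7.83 for wild type and 7.55 for knockout on control diet, and 6.63 and 6.93 with high fat. Both high-fat arrays lay below both control arrays. The diet difference was -1.20 in wild type, 2.29-fold lower, and -0.62 in knockout, 1.54-fold lower, and these do not share an array. From the bottom they ranked 48 and 189 of 13308 genes. The genotype differences had opposite signs, -0.27 on control and 0.30 on high-fat diet.

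Cxcl14, a chemokine of epithelia and other tissues, and Cxcl16, the transmembrane chemokine that binds Cxcr6 and also takes up oxidised lipid, had smaller differences. Cxcl14 (probe set 17293006) was 4.04 for wild type and 4.47 for knockout on control diet, and 4.25 and 4.16 with high fat. Its genotype difference on control diet, 0.44, lay just above the central 95% of genes, from -0.45 to 0.41. It had the array order of Cxcl1 at a smaller size. Cxcl16 (probe set 17265268) was highest on the wild-type control array, at 6.49, and was 6.11, 6.14 and 6.20 on the knockout control, wild-type high-fat and knockout high-fat arrays. The 3 lower arrays lay within 0.10 of each other. The table places Zmynd15 over Cxcl16, and Zmynd15 was lowest on the knockout high-fat array, at 3.87 against 4.12 to 4.19.

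**Figure D3:**
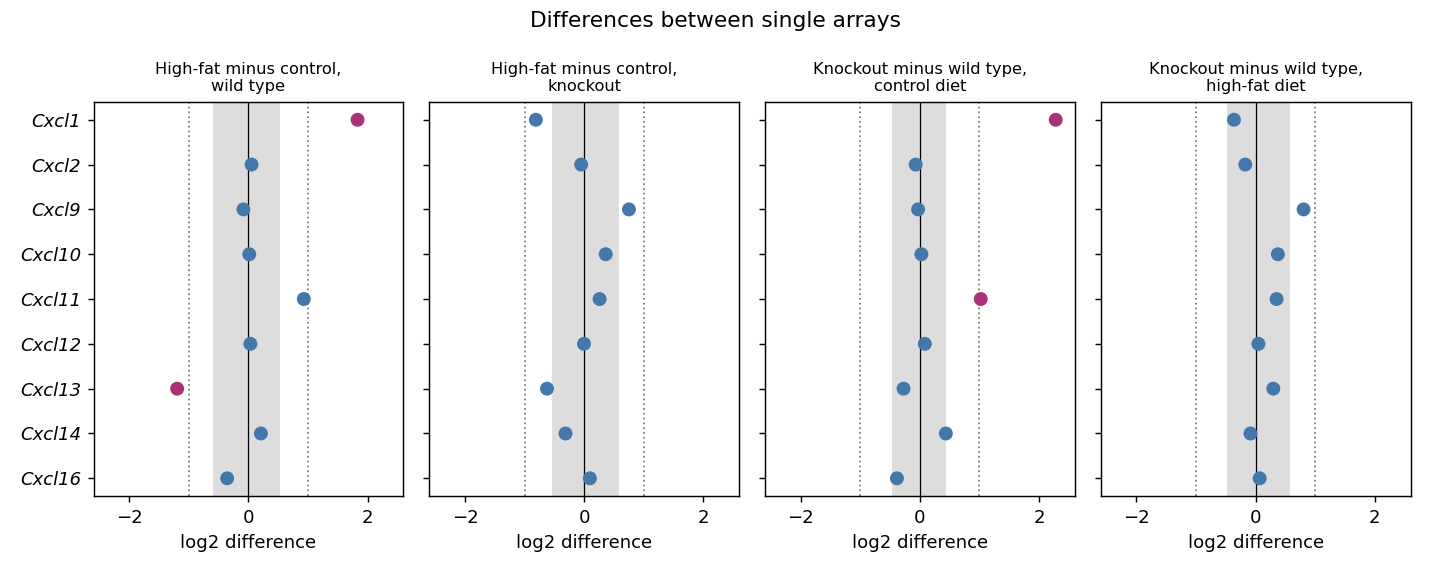
Log2 differences (horizontal axes) of the 9 members (rows) in the 4 comparisons between single arrays. The grey band is the central 95% of 13308 genes, dotted lines mark 2-fold, and points past them are purple: Cxcl1 and Cxcl13 for diet in wild type, and Cxcl1 and Cxcl11 for genotype on control diet.

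Counted at 2-fold in either direction, 2 of the 9 members differed with diet in wild type (Cxcl1 higher, Cxcl13 lower), beside 1.05% of all genes. In knockout 0 members did, beside 0.609% of genes. On control diet 2 members differed with genotype, Cxcl1 and Cxcl11, both higher in knockout, beside 0.503% of genes, and on high-fat diet 0 did, beside 0.391%. The medians over the 9 members were near those of all genes: 0.03 against -0.03 for diet in wild type, 0.00 against 0.01 for diet in knockout, 0.03 against -0.02 for genotype on control diet and 0.07 against 0.02 on high-fat diet. In the same order 6, 4, 5 and 6 of the 9 were higher, beside 44.9%, 52.2%, 46.6% and 54.0% of all genes, so the members did not share a direction. The 9 include Cxcl2, which was below the limit for dim genes.

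The difference of the diet differences, knockout minus wild type, was past 2-fold for Cxcl1 alone, at -2.64, beside 1.22% of all genes. It was 0.84 for Cxcl9, 0.57 for Cxcl13, 0.45 for Cxcl16, 0.35 for Cxcl10, -0.04 for Cxcl12, -0.10 for Cxcl2, -0.52 for Cxcl14 and -0.67 for Cxcl11. A positive value does not mean a larger response in knockout, as Cxcl13 shows, whose diet difference was smaller there.

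A fit of diet and genotype as additive terms to the 4 arrays together, with the departure from additivity as its error, called 0 members. In limma with Benjamini-Hochberg adjustment over all genes, 0% of genes passed an adjusted p of 0.05 for diet and 0% for genotype. After cyclic loess between the arrays limma called 70 and 3 genes, none of them members. At an unadjusted p of 0.05 limma had 2 members for diet, Cxcl11 and Cxcl13, beside 9.30% of all genes, and 1 for genotype, Cxcl11, beside 4.26%. Cxcl13 was lower on high-fat diet by a limma effect of -0.91 (SE 0.17), with an adjusted p of 0.277, and lower in 2 of 2 genotypes. Over the 5 other ways of processing that were tried, that adjusted p in limma ran from 0.0519 to 0.352. Cxcl11 had limma effects of 0.59 (SE 0.19) for diet, adjusted p 0.433, and 0.69 (SE 0.19) for genotype, adjusted p 0.975. Cxcl1 had 0.51 (SE 0.57) for diet and 0.96 (SE 0.57) for genotype, with limma adjusted p of 0.855 and 0.975. Its SE is the largest of the 8, as its diet differences were the farthest apart, by -2.64, and that departure enters as error. The additive fit is thus no measure of the differences of Cxcl1 between single arrays.

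The receptors of these ligands were dim, and 5 of 8 passed the limit for dim genes: Cxcr2, Cxcr3, Cxcr4, Cxcr5 and Ackr3. None was at least 2-fold different in any comparison, and limma called 0 of them, also at an unadjusted p of 0.05. Cxcr3, the receptor for Cxcl9 and Cxcl10, was 3.62 and 3.76 with the control diet (wild type, knockout) and 3.59 and 3.23 with high fat, so it was lowest on the array where those ligands were highest. Cxcr5, the receptor for Cxcl13, ranged from 3.59 to 3.88, and its values on the 2 diets overlapped. Cxcr2, the receptor for Cxcl1, ranged from 3.41 to 3.73, and Ackr3, which scavenges Cxcl12, from 3.77 to 4.09. Cxcr1, Cxcr6 and Ackr1 were below the limit.

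Of 13 genes for the processing and surface display of chemokines, 12 were measured and 11 passed the limit, with medians between -0.07 and 0.09 in the 4 comparisons. Limma called 0 at its adjusted threshold. Dpp4, a protease that trims Cxcl10 and Cxcl12, ranged from 9.27 to 9.52, and Adam10, which sheds Cxcl16, from 7.65 to 7.79. Mmp14, a membrane metalloproteinase, was 7.28 and 7.14 with the control diet and 6.51 and 6.57 with high fat, lower by -0.77 in wild type and -0.57 in knockout. Its limma effect for diet was -0.67 (SE 0.13, adjusted p 0.277). Ext1, an enzyme of heparan sulfate chain synthesis, had diet differences of 0.38 (wild type) and 0.32 (knockout).

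Genes upstream were also read. In the NF-kappaB list, 13 of 14 genes were measured and all 13 passed the limit, and the medians were -0.04 and -0.12 for diet in wild type and knockout and 0.08 and -0.14 for genotype on control and high-fat diet. Bcl3, a nuclear partner of NF-kappaB, was 5.50 and 6.18 with the control diet and 5.88 and 5.39 with high fat, so it was highest on the same array as Cxcl1 but not lowest on the same one. Tnfaip3, which shuts NF-kappaB signalling off, was lowest on the wild-type control array, at 3.80, and 4.03, 4.48 and 4.17 elsewhere. Among 21 measured genes of the Myd88 pathway 19 passed the limit, the medians lay between 0.02 and 0.11, and Tlr5, the flagellin receptor, was higher on high-fat diet by 0.72 and 0.94. Limma called 0 of either list at its adjusted threshold.

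The interferon lists bear on the Cxcr3 ligands. For the interferon gamma pathway 14 of 16 genes were measured and 11 passed the limit. Ifng itself was below it on average. On high-fat diet the list's median was 0.15 higher in knockout, with 8 of 11 higher and 0 past 2-fold. With the control diet the list's median was 0.12 higher in knockout, with 7 of 11 higher. Over all genes those medians were 0.02 and -0.02, with 54.0% and 46.6% of genes higher in knockout. Igtp, a GTPase induced by interferon gamma, was 6.11 and 6.24 with the control diet and 5.67 and 6.33 with high fat. For the type I pathway 13 of 15 genes passed the limit. Of these, 11 were higher in knockout with the control diet and 10 with high fat, beside 46.6% and 54.0% of all genes. The medians were 0.17 and 0.13 against -0.02 and 0.02 over all genes. Usp18 was higher in knockout by 0.50 and 0.86, Ifit1 by 0.44 and 0.61, and Isg15 by 0.41 and 0.67, all of them genes induced by interferon. Rsad2 was higher by 0.08 and 0.62, while Ifit3 of the same list was lower in knockout, by -0.48 and -0.14. At an unadjusted p of 0.05 limma had 4 of the 13 for genotype, all higher, beside 4.26% of all genes (318 higher and 249 lower), and 0 at its adjusted threshold. On control diet the genotype differences of Cxcl9 and Cxcl10 were -0.03 and 0.03, and that of Cxcl11 was 1.02.

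Cell type markers were read beside the ligands. Neutrophil markers, the cells that Cxcl1 attracts, were dim: 10 of 12 were below the limit, and the list mean ranged from 3.35 to 3.38 over the 4 arrays. On the wild-type and knockout control arrays, between which Cxcl1 differed by 2.28, it was 3.38 and 3.37. T and NK cell markers averaged between 3.46 and 3.65 over 10 measured genes, lowest on the knockout high-fat array, where Cxcl9 and Cxcl10 were highest. Of the 10 genes 5 were below the limit for dim genes, and the means lay near that limit. B and plasma cell markers averaged 4.11 and 4.07 with the control diet and 4.32 and 4.22 with high fat over 6 measured genes. These means were higher on the arrays where Cxcl13 was lower, but 3 of the 6 genes were below the limit. Ighm, the immunoglobulin heavy chain, was the brightest of the 6, with diet differences of 0.57 (wild type) and 0.43 (knockout). Mzb1 had 0.50 and 0.23 in the same order. Cd79b, the remaining gene above the limit, had -0.16 and -0.02, so the markers did not all share a direction.

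Kupffer cell and macrophage markers, all 12 above the limit, averaged 7.49 and 7.37 with the control diet and 7.21 and 7.23 with high fat. In wild type and knockout 10 and 9 of 12 were lower on high-fat diet. The remaining 2 and 3 were higher, beside 44.9% and 52.2% of all genes. The medians were -0.31 and -0.13, against -0.03 and 0.01 over all genes. The list mean moved with Cxcl13, and the part of these cells in that result was not tested. C1qa, a complement gene of macrophages, was lower by -0.42 and -0.64. The wild-type control array, on which Cxcl16 was highest, was the highest for 5 of the 12 markers, and for the other 7 it was not. Among the 5 were Marco at 6.02 and Adgre1 at 6.90. The knockout control array, on which Cxcl16 was lowest at 6.11, was also the highest for 5 of the 12. The part of these cells in the values of Cxcl16 was not tested. Sinusoidal endothelial markers averaged 7.68 to 7.80 and stellate cell markers 6.51 to 6.64.

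**Figure D4:**
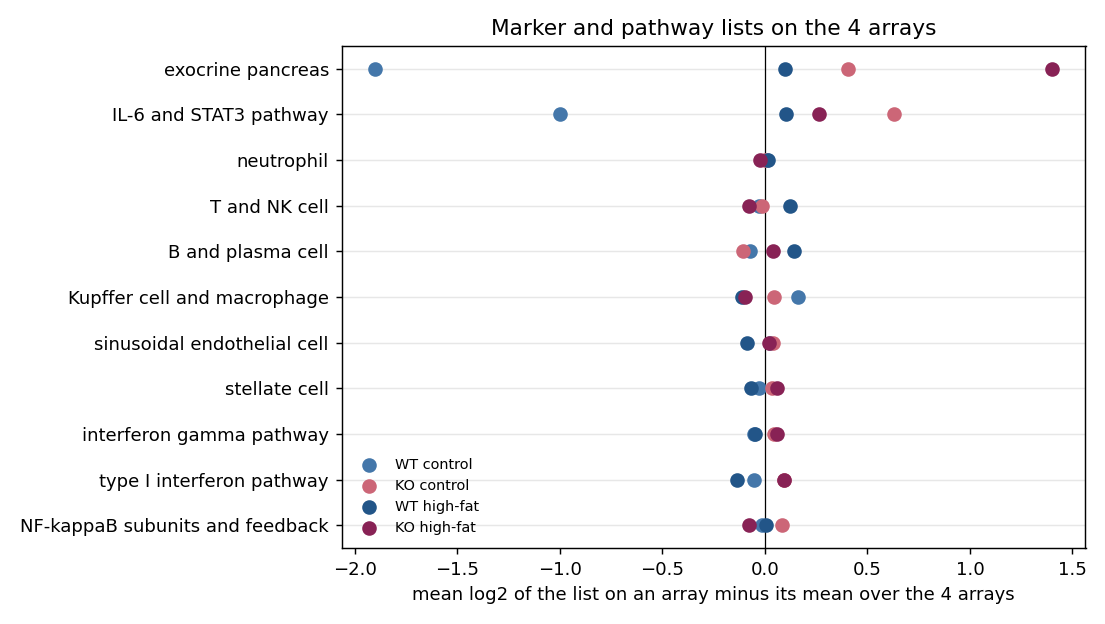
Mean log2 value of each marker or pathway list on an array minus that list's mean over the 4 arrays (horizontal axis), 1 point per array in the colour of its group, for 11 lists (rows); where values are close, points cover each other. The pancreas and the IL-6 and STAT3 lists are low on the wild-type control array, and the neutrophil list barely moves.

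The pancreas list and the IL-6 and STAT3 list were low on the wild-type control array together with Cxcl1 and Cxcl11. The adipose list was also lowest there, at a mean of 3.19 against 3.36 to 3.38. Of its 3 measured genes 2 were below the limit for dim genes. Over all genes kept, 27 of 13308, or 0.203%, were at least 2-fold lower on that array than on each of the other 3, a set read after the values were seen. They included Cxcl1, all 10 kept pancreas markers, and 5 of 12 genes of the IL-6 and STAT3 list, Saa2, Saa3, Lcn2, Orm2 and Steap4, which are acute phase or inflammation genes. Saa2, a serum amyloid A gene, was 4.97 for wild type and 12.34 for knockout on control diet, and 10.73 and 10.83 with high fat. Lcn2, lipocalin 2, was 4.97 and 9.27, and 7.56 and 8.37. The median of the IL-6 and STAT3 list was higher in knockout by 0.58 with the control diet and by 0.02 with high fat. Socs3, induced by STAT3, was 4.36 and 4.81 on control diet and no higher than 4.35 on high-fat diet, and Il6 was below the limit for dim genes. Pancreas markers were highest on the knockout high-fat array, which was also the highest for Cxcl11, whereas Cxcl1 was lower there than in knockout on control diet. The part of pancreas RNA in the values of Cxcl1 and Cxcl11 was not tested.

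The genes most like each member were sought by the root mean square difference of log2 values after centring each gene on its own mean over the 4 arrays, among 195 genes that spanned 2-fold. Only Cxcl1, Cxcl11 and Cxcl13 spanned 2-fold themselves. For Cxcl1 the nearest was Nnmt, nicotinamide N-methyltransferase, at 0.15, which was 5.84 on the wild-type control array, 7.78 on the knockout control array, and 7.69 and 7.30 on the wild-type and knockout high-fat arrays. Next were Mt2 at 0.33, Prg4 at 0.36, Mt1 at 0.37 and Orm2 at 0.41. Mt1 and Mt2 encode metallothioneins and Orm2 an orosomucoid of the acute phase.

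For Cxcl11 the nearest were Steap4, a metalloreductase, at 0.09 and Gbp7, a guanylate binding protein, at 0.10, followed by B3galt1, Prg4 and Pnliprp2 at 0.15 to 0.18. Pnliprp2 encodes a lipase of the pancreas. For Cxcl13 the nearest were Elovl5, a fatty acid elongase, at 0.04, Cd9, a tetraspanin, at 0.06, Map4k4 at 0.06, Atf5 at 0.07 and Pmvk, an enzyme of cholesterol synthesis, at 0.08. With 4 arrays many genes can share a pattern, so likeness here describes these arrays only.

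**Figure D5:**
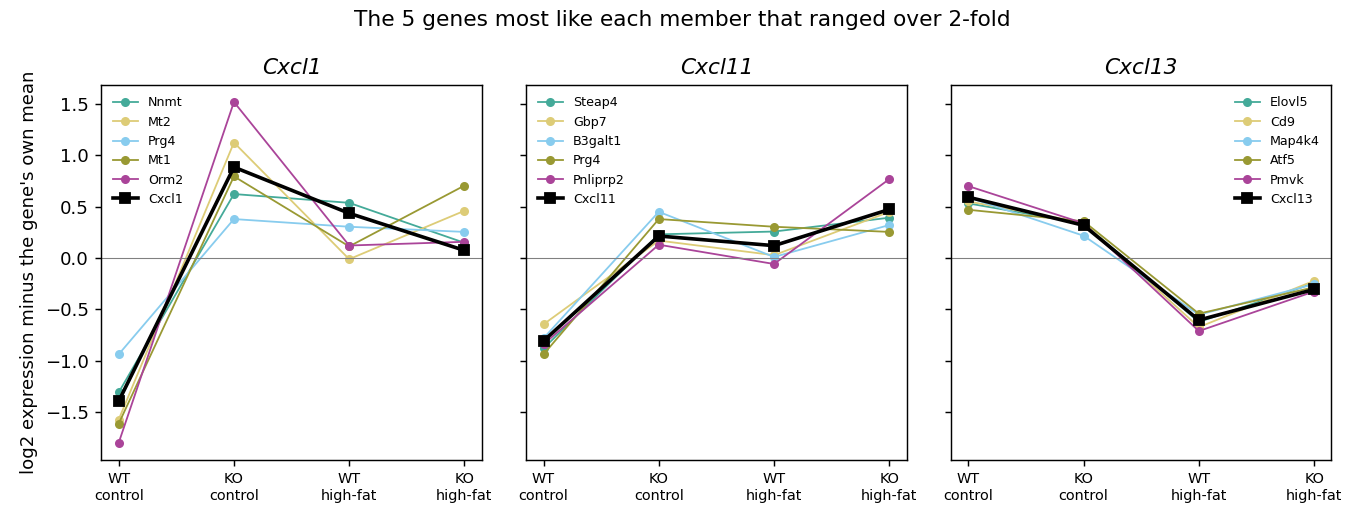
Log2 expression minus each gene's own mean (vertical axis) on the 4 arrays (horizontal axis) for Cxcl1, Cxcl11 and Cxcl13 (black squares) and the 5 genes most like each (coloured circles). The lines join values of 1 gene and carry no time order. Genes near Cxcl1 and Cxcl11 share the low wild-type control array, and genes near Cxcl13 are low on both high-fat arrays.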

How the data were processed

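Pooled liver RNA of 4 mouse groups was hybridised to 1 Affymetrix array each. The authors deposited log2 expression values per probe set, made with RMA. Per the submitters' processing notes the program was Affymetrix Expression Console. Its version is not given in the sources used here. The method subtracts background, sets the arrays to a common distribution and combines probes into probe sets, which compresses differences of dim genes. No detection calls were used.

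Of 41345 probe sets, 23521 had 1 symbol in the platform annotation. The brightest probe set stood for each of 22180 genes, and 13308 genes with a mean at or above the 40th percentile were kept. Differences are subtractions of log2 values, and genes were counted at 2-fold. Diet and genotype were fitted in R 4.3.3 by limma 3.58.1 (lmFit and eBayes, with Benjamini-Hochberg adjustment over all genes). The fit leaves 1 residual degree of freedom, the departure from additivity. Its p-values are set against that departure and do not measure spread between mice or between replicate arrays. The script was tested on simulated data. Python 3.11.15, pandas 2.3.3, NumPy 2.4.6 and matplotlib 3.10.9 did the rest.

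Members, lists and motifs were chosen with earlier results of these data known. The text names all 9 members, Myd88, up to 4 genes per list by largest difference, and the 5 genes most like a member that spans 2-fold. Other list genes, such as Dpp4, Adam10, Cxcr4 and Socs3, and the genes near or over a member were named outside this rule, after values were seen. No protein sequences were used. The alternatives were cyclic loess, quantile and median normalisation, no filter, the mean of probe sets, 1.5-fold, and unadjusted p.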

Additional observations from a re-analysis of the deposited data

Results flagged for a closer look

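Cxcl1 was singled out because its diet difference had opposite signs in the 2 genotypes and was past 1.5-fold in each: 1.83 for wild type and -0.81 for knockout, which are -2.64 apart (knockout minus wild type). No other of the 9 members met this. The threshold of 1.5-fold was set after the values were seen. With 1 pooled array in each group the difference was not tested.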

How the results depend on the processing

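The count of members at least 2-fold different was the same under cyclic loess, quantile and median normalisation, without the filter and with the mean of probe sets, in all 5 comparisons. The last 2 of these could not change it, because each member had 1 probe set and the filter alters no subtraction. At 1.5-fold it became 3 for the wild-type diet comparison, 3 for the knockout one (Cxcl1, Cxcl9 and Cxcl13), 2 for genotype on control diet, 1 on high-fat diet (Cxcl9) and 3 for the difference of the diet differences. The share of all genes past 1.5-fold was not counted, so whether the members stand out at that threshold was not tested. Limma called 70 genes for diet and 3 for genotype after cyclic loess, against 0 and 0 as reported, and 0 members in each case. The cause was not tested. At an unadjusted p of 0.05 limma had 1238 and 567 genes, and 2 and 1 members. Of 180 recomputed member differences 5 moved by 0.1 log2 or more, the largest by 0.13, and no value past 2-fold changed sign. The 180 include those with the mean of probe sets, which equal the reported values by construction. Signs turned for 1 value under each normalisation, all below 0.07 in size. No paired analysis was possible because each group has 1 array. For the same reason no array could be left out of a comparison, and no replicate spread exists. Signal over background is unknown, which limits Cxcl2, Cxcl10 and the receptors most.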
